A study of Mus musculus with 13 samples.

Results

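Myeloid cytokine receptors are the surface proteins through which blood progenitors read colony-stimulating factors, interleukins, interferon gamma and tumour necrosis factor. The 10 receptor genes described here, Csf2ra, Il3ra, Csf2rb, Csf2rb2, Csf3r, Csf1r, Il6ra, Il6st, Ifngr1 and Tnfrsf1a, were chosen by name from 24062 rows of the expression table. All 10 had a mean of at least 0 log2 CPM (CPM being read counts scaled to the library total) over the 13 libraries and so were among the 11867 genes tested. RNA was measured in LK cells, a fraction of mouse bone marrow sorted as c-kit positive and negative for lineage markers and Sca-1, which holds committed myeloid and erythroid progenitors. The dKO group (TIFAB-/-;miR146a-/-) had 4 libraries, and the TIFAB_KO group (TIFAB-/-;miR-146a+/+), the miR-146a_KO group (TIFAB+/+;miR-146a-/-) and the WT group (TIFAB+/+;miR-146a+/+) had 3 each. In all 4 groups the donor marrow had been given intravenously to syngeneic Boy/J mice irradiated with 7.0 and 4.75 Gy, 3 h apart, so every group, WT included, is marrow regenerated in an irradiated host. The labels give an age of 2 to 5 months and 3 mice per group. Whether the libraries come from different mice is not stated, so the p-values below measure the spread between these libraries, which may be technical in part. The labels give the genotype of the donor marrow and name no promoter or Cre line.

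These receptors signal when a ligand binds, through chains that act together. GM-CSF and IL-3 are bound by their own alpha chains, Csf2ra and Il3ra, and signal through the common beta chain Csf2rb; the mouse has in addition Csf2rb2, a beta chain that serves IL-3 alone. Csf3r is the G-CSF receptor of the granulocyte lineage, Csf1r is the receptor tyrosine kinase that macrophages need, and Il6ra binds IL-6 and signals through gp130, encoded by Il6st. Ifngr1 is the ligand-binding chain for interferon gamma and Tnfrsf1a is TNF receptor 1. TIFAB is a forkhead-associated domain protein that restrains TRAF6, the ubiquitin ligase below Toll-like and IL-1 receptors. miR-146a is a microRNA that represses Traf6 and Irak1. Both human genes lie in the region lost in del(5q) myelodysplastic syndrome, and the study asked how losing the pair acts on blood progenitors.

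The members were searched for matches to the seed of the deleted microRNA. Mature miR-146a-5p is encoded on chromosome 11 at chr11:43374435-43374456, minus strand, and its seed, bases 2 to 8, is in capitals. A perfect match to that seed, AGTTCTC, occurred in the 3′ untranslated region of 3 of the 10 members, Il6st with 2 matches and Csf2rb and Csf1r with 1 each, and in none of the other 7. Among all 20952 genes with an annotated 3′ untranslated region on their longest coding transcript, 11.0% held a match. That share does not allow for the length of the region. It was 5641 bases in Il6st, 1816 in Csf2rb and 1669 in Csf1r. Among the members without a match it was 490 to 602 in Tnfrsf1a, Ifngr1, Il3ra, Csf2ra and Csf3r, 1810 in Csf2rb2 and 7102 in Il6ra. The first Il6st match and the Csf2rb match are shown with 10 bases on either side, and the capitals mark the match. The miRNA is from RefSeq and the transcripts are from GENCODE, both on GRCm38. The search was made after the expression values were known, and a match is a description of letters, not a measured site.
miR-146a-5p: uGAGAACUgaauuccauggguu
Il6st site, chromosome 13: aagaactcgaAGTTCTCagctgtgcct
Csf2rb site, chromosome 15: gctgttcgttAGTTCTCcctccagagc

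Promoters of the GM-CSF, IL-3 and G-CSF receptor chains are shown, chosen after the values were seen, because these genes had the largest fold changes or varied together across libraries. Each window is 300 bases from RefSeq on GRCm38.p6, with 250 bases before and 50 after the annotated start, and 8 of the 10 members, all but Csf2rb and Csf1r, matched a window used here. Capitals mark GAGGAA, the core bound by PU.1, the transcription factor of myeloid progenitors encoded by Spi1, and TTNCNNAA, a loose form of the motif of C/EBP factors, on either strand (TTCCTC is GAGGAA read on the other strand). Csf2ra held 2 adjoining copies of GAGGAA, starting 14 and 8 bases before the start site. Csf3r held 1 copy and Csf2rb2 held 2, the second of which overlaps a TTNCNNAA match, and the Il3ra window held 1 TTNCNNAA match alone. The PU.1 core was found in 4 of the 8 windows, the other being that of Il6ra, against 28.3% of all 32851 windows of this length. TTNCNNAA was found in 4 of the 8 windows, those of Csf2ra, Csf2rb2, Il3ra and Il6ra, against 40.7% of all windows.
Csf2ra promoter, chr19:61228369-61228668, minus strand: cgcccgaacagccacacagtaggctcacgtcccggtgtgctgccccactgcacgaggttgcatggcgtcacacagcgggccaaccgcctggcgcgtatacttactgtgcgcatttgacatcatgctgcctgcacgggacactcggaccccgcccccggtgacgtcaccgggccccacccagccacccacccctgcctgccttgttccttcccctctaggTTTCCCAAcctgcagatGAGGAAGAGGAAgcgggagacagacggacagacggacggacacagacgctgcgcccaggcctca
Il3ra promoter, chr14:14346245-14346544, plus strand: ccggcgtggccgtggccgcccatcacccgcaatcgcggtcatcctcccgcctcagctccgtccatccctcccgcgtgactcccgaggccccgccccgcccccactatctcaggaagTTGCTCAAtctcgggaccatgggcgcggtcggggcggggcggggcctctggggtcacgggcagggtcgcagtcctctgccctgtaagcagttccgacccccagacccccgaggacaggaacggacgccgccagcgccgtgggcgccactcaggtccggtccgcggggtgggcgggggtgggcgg
Csf2rb2 promoter, chr15:78305672-78305971, minus strand: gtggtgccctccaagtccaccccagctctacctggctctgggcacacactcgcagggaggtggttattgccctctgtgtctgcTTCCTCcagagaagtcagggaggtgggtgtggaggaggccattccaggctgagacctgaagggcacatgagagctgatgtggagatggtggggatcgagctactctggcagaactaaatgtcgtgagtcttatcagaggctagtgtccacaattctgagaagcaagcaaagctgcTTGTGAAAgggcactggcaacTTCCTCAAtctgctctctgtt
Csf3r promoter, chr4:126024409-126024708, plus strand: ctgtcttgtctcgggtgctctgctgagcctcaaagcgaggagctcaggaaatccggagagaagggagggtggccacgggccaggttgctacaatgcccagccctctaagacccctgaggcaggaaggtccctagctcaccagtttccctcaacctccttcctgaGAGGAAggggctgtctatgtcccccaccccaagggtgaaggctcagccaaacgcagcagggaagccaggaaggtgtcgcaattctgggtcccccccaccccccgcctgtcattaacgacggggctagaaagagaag

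The 13 libraries held 7.83 to 12.8 M reads. Tifab itself had 6.20, 4.21, 3.23 and 11.0 CPM in the dKO libraries and 8.95, 11.7 and 12.8 CPM in the TIFAB_KO libraries, against 69.2, 70.8 and 64.4 CPM in the miR-146a_KO libraries and 40.4, 49.4 and 39.6 CPM in the WT libraries. All 7 Tifab-null libraries were below all 6 others. The Mir146 row had 0 reads in 13 of 13 libraries, WT included, so the expression table does not check the miR-146a genotype. Kit, which defines the sort, was at 386 to 447 CPM in dKO, 269.6 to 459 in TIFAB_KO, 345 to 456 in miR-146a_KO and 368 to 409.6 CPM in WT, while Ly6a, which encodes Sca-1, stayed between 0.597 and 5.30 CPM over all libraries. TIFAB_KO replicate 3 and dKO replicate 3 were the least like the rest, with median correlations to the other libraries of 0.947 and 0.951 (Pearson, across genes).

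All 10 receptors were detected in every library, across a wide range of levels. Per kilobase of the longest annotated transcript (RPKM, mean ± SD over 13 libraries), Ifngr1 was highest at 121 ± 16.3. Csf2ra followed at 43.0 ± 19.9, Csf3r at 30.6 ± 7.26, Csf1r at 27.05 ± 5.41 and Csf2rb at 25.4 ± 7.67. Tnfrsf1a had 12.6 ± 2.52, Il6st 10.9 ± 2.14, Il6ra 7.00 ± 1.45, Csf2rb2 4.87 ± 3.28 and Il3ra 1.31 ± 0.65. With these transcript lengths, the order across libraries was firm at its ends and loose in the middle. The counts of libraries cover spread alone, because 1 length per gene was used throughout and the transcripts present were not measured. In CPM, not divided by length, Il6st (mean 94.7) and Il6ra (60.5) were above Tnfrsf1a (27.1). Ifngr1 was above Csf2ra, Csf2rb above Tnfrsf1a, Il6st above Il6ra and Csf2rb2 above Il3ra in 13 of 13 libraries. The neighbours Csf2ra and Csf3r, Csf3r and Csf1r, and Csf1r and Csf2rb kept that order in only 7, 8 and 7 of the 13, so neighbours here do not differ beyond their spread. Farther apart in the order, Csf2ra was above Csf1r and above Csf2rb, and Csf3r above Csf2rb, in 11 of 13 each. The alpha chain for GM-CSF was thus far more abundant than the alpha chain for IL-3 in all 13 libraries, with group means of 56.9, 41.5, 40.6 and 28.3 RPKM for Csf2ra and 1.10, 1.99, 1.04 and 1.17 RPKM for Il3ra in dKO, TIFAB_KO, miR-146a_KO and WT.

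**Figure D1:**
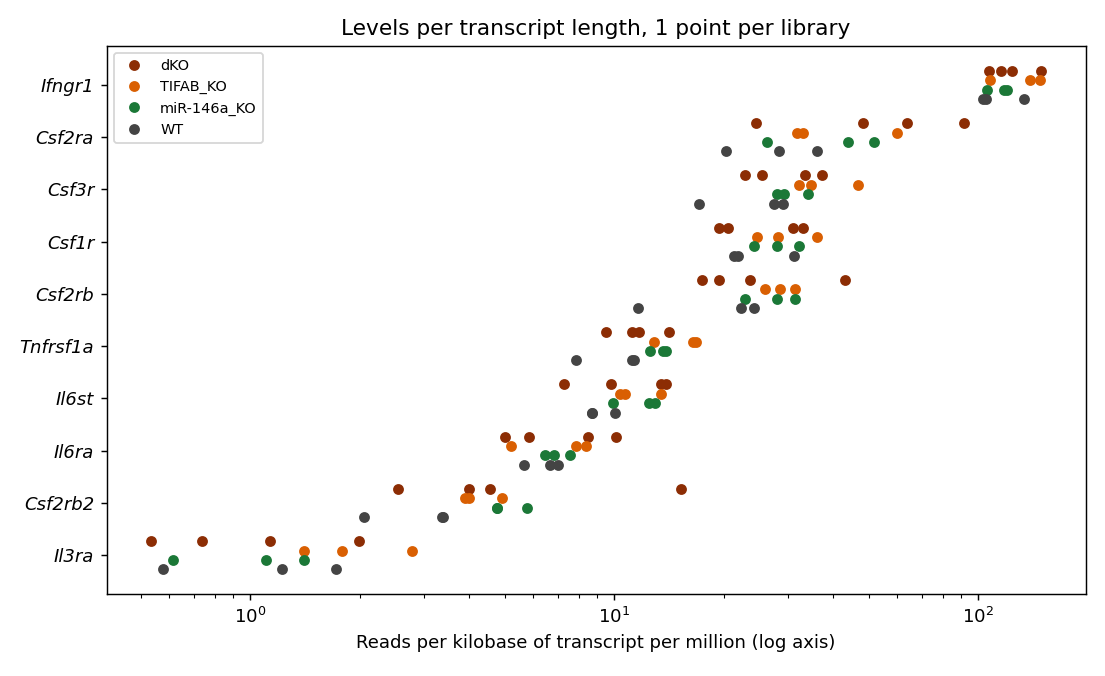
RPKM (log axis) for each receptor gene, 1 point per library, coloured by group. Ifngr1 stands apart at the top, Il3ra at the bottom, and Csf2ra, Csf3r, Csf1r and Csf2rb overlap in between.

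The GM-CSF receptor alpha chain Csf2ra (chr19:61223957-61228429, minus strand) varied most among the abundant members. It had 89.0, 118, 169 and 45.2 CPM in dKO replicates 1 to 4, 111, 61.0 and 58.7 CPM in TIFAB_KO, 81.0, 95.7 and 48.7 CPM in miR-146a_KO, and 37.6, 52.4 and 66.9 CPM in WT. Of the dKO libraries 3 lay above every WT library and replicate 4 lay among them, so the groups overlap. Its log2 fold change was 0.89 ± 0.34 (SE; unadjusted p = 0.0181, limma Benjamini-Hochberg adjusted p = 0.278) in dKO against WT, which did not pass. It was 0.53 ± 0.37 in TIFAB_KO against WT and 0.51 ± 0.37 in miR-146a_KO against WT, with adjusted p of 0.999 and 0.650 from limma. The TIFAB_KO value was 0.23 without TIFAB_KO replicate 1 and 0.31 without WT replicate 1, and the miR-146a_KO value was 0.29 without WT replicate 1, 0.30 without miR-146a_KO replicate 2 and 0.79 without miR-146a_KO replicate 3. Without dKO replicate 4 the dKO value was 1.25 and the adjusted p 0.0282, a call that rests on leaving that library out, and without dKO replicate 3 it was 0.62.

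The IL-3 receptor alpha chain Il3ra (chr14:14346275-14356011, plus strand) was the scarcest member, with 10 to 54 reads a library. It had 2.63, 1.24, 4.61 and 1.70 CPM in dKO, 6.45, 3.25 and 4.14 CPM in TIFAB_KO, 3.26, 1.42 and 2.56 CPM in miR-146a_KO and 2.83, 3.97 and 1.33 CPM in WT. Counting error alone spans 0.594 to 2.28 CPM in dKO replicate 2, the library with 10 reads, and 4.84 to 8.41 CPM in TIFAB_KO replicate 1, the library with 54 (exact Poisson 95% intervals, which cover counting error only). The highest library was TIFAB_KO replicate 1, and all 4 groups overlap. The log2 fold change of 0.83 ± 0.52 in TIFAB_KO against WT had a limma adjusted p of 0.999, and it was 0.40 when WT replicate 3 was left out and 1.17 when WT replicate 2 was. In dKO and miR-146a_KO the values against WT were -0.13 and -0.11, and leaving out single libraries turned both signs, giving -0.56 to 0.21 in dKO and -0.54 to 0.23 in miR-146a_KO. Differences of this size were not detectable with these read counts and this spread.

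The common beta chain Csf2rb (chr15:78325752-78353847, plus strand) had 115, 85.7, 211 and 95.2 CPM in dKO, 139.9, 154 and 127 CPM in TIFAB_KO, 154, 112 and 137 CPM in miR-146a_KO and 119, 109.6 and 57.1 CPM in WT. Every TIFAB_KO library was above every WT library, by a margin set by WT replicate 1, and dKO replicate 3 had the highest value of all 13 libraries. Against WT its log2 fold change was 0.63 ± 0.28 in TIFAB_KO (unadjusted p = 0.0402, limma adjusted p = 0.955). In miR-146a_KO it was 0.56 ± 0.28, in dKO it was 0.39 ± 0.27, and none passed. WT replicate 3 had the lowest Csf2rb of all 13 libraries, and without it the values were 0.29 for TIFAB_KO, 0.23 for miR-146a_KO and 0.06 for dKO. Without dKO replicate 3 the dKO value was 0.11.

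The IL-3-specific beta chain Csf2rb2 (chr15:78282507-78305721, minus strand), the neighbour of Csf2rb, had 21.6, 18.9, 72.4 and 12.1 CPM in dKO, 23.3, 19.0 and 18.5 CPM in TIFAB_KO, 22.6, 22.6 and 27.3 CPM in miR-146a_KO and 16.1, 16.0 and 9.75 CPM in WT. Every TIFAB_KO and every miR-146a_KO library was above every WT library, and dKO replicate 4 lay among the WT values while dKO replicate 3 lay far above all others. Against WT the log2 fold change was 0.85 ± 0.39 in dKO (unadjusted p = 0.0434, limma adjusted p = 0.344), in TIFAB_KO 0.56 ± 0.42, and for miR-146a_KO 0.82 ± 0.42 (adjusted p = 0.545); none passed. Without dKO replicate 3 the dKO value was 0.33, and leaving out WT replicate 3 put the TIFAB_KO value at 0.33 too. The longest transcripts of both beta chains are 93.3% identical over 4545 aligned bases and share 892 stretches of 50 bases, 18.4% of those in Csf2rb and 19.0% of those in Csf2rb2. How reads that fit both were counted was not stated, so the split between the chains is uncertain. Their sum does not depend on the split, but it would lack the shared reads if these were left out of the counting. The log2 fold change of the sum against WT was 0.47 ± 0.28 in dKO, 0.62 ± 0.30 for TIFAB_KO and 0.60 ± 0.30 for miR-146a_KO, with limma adjusted p of 0.440, 0.986 and 0.538.

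Csf2rb2 supplied a minor and variable share of the beta-chain reads. The share was 15.8, 18.1, 25.6 and 11.3% for the dKO libraries and 14.3, 11.0 and 12.7% for the TIFAB_KO libraries. It was 12.8, 16.7 and 16.6% for miR-146a_KO, against 11.9, 12.7 and 14.6% for WT. In dKO replicate 3 the 95% Wilson interval was 23.9 to 27.3%, apart from the intervals of all other libraries, the nearest being 15.7 to 20.8% in dKO replicate 2 (counting error only). The groups overlap in every pairing with WT. The 3 highest shares outside dKO replicate 3 were those of dKO replicate 2 and miR-146a_KO replicates 2 and 3.

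**Figure D2:**
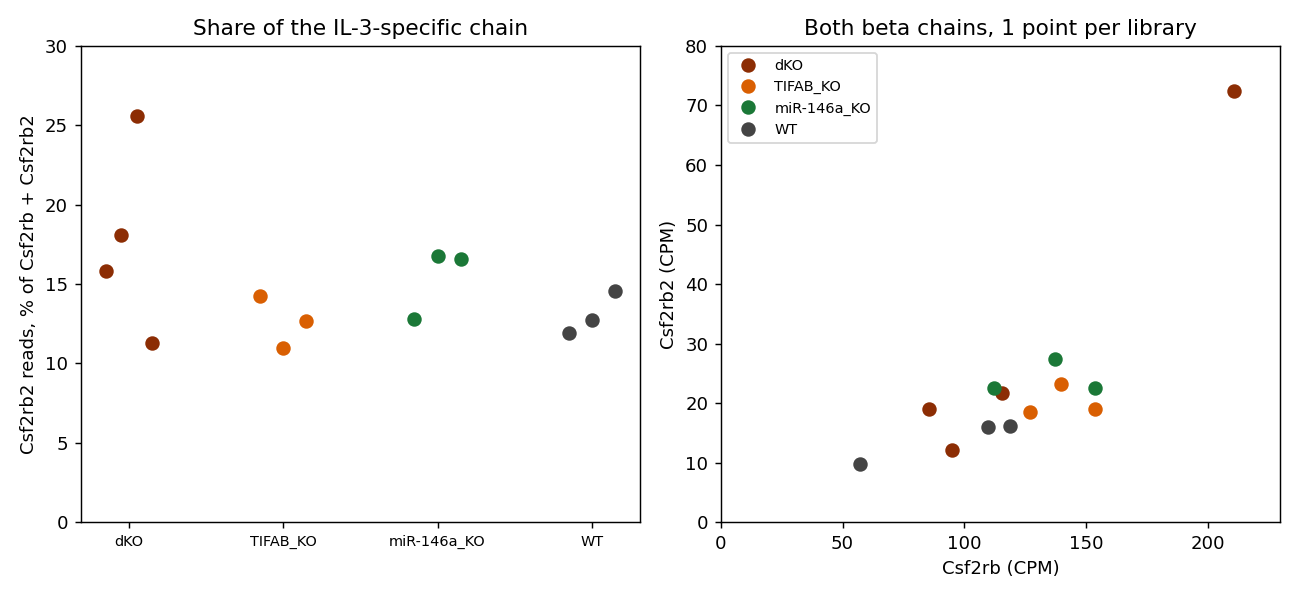
Left, reads of Csf2rb2 as a percentage of Csf2rb plus Csf2rb2 in each library. Right, CPM of both chains, 1 point per library coloured by group; dKO replicate 3, at 211 and 72.4 CPM, stands alone at the upper right and WT replicate 3, at 57.1 and 9.75 CPM, at the lower left.

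The G-CSF receptor Csf3r (chr4:126024550-126044440, plus strand) had 117, 79.7, 129.9 and 88.9 CPM in dKO, 121, 163 and 112 CPM in TIFAB_KO, 102, 97.4 and 119 CPM in miR-146a_KO and 95.8, 102 and 59.7 CPM in WT. All TIFAB_KO libraries were above all WT libraries, and the dKO and miR-146a_KO libraries overlapped both. The log2 fold change in TIFAB_KO against WT was 0.64 ± 0.22 (unadjusted p = 0.00809), and the limma adjusted p over all genes was 0.699, so it did not pass. It was 0.34 ± 0.22 in miR-146a_KO and 0.29 ± 0.20 in dKO. Without WT replicate 3, the lowest of the 13, the TIFAB_KO value was 0.40, that of miR-146a_KO 0.10 and that of dKO 0.05. Without dKO replicate 3 the dKO value was 0.17, and without TIFAB_KO replicate 3 the TIFAB_KO value was 0.75.

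The macrophage receptor Csf1r (chr18:61100598-61132149, plus strand) had 146, 155, 96.6 and 91.1 CPM in dKO, 169, 116 and 132 CPM in TIFAB_KO, 132, 151 and 114 CPM in miR-146a_KO and 103, 147 and 100.3 CPM in WT. All 4 groups overlap. Its log2 fold change against WT was 0.05 in dKO (95% interval -0.38 to 0.47), 0.26 in TIFAB_KO (-0.19 to 0.71) and 0.19 in miR-146a_KO (-0.26 to 0.65). With single libraries left out the values ran from -0.08 to 0.23 in dKO, 0.11 to 0.44 in TIFAB_KO and 0.09 to 0.37 in miR-146a_KO.

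The IL-6 receptor alpha chain Il6ra (chr3:89864059-89913196, minus strand) had group values close to each other. It had 73.1, 87.2, 43.4 and 50.4 CPM in dKO, 72.4, 67.7 and 45.0 CPM in TIFAB_KO, 65.4, 58.9 and 56.0 CPM in miR-146a_KO and 60.6, 57.7 and 48.8 CPM in WT. The dKO libraries held both the highest and the lowest value of the 13. The log2 fold change against WT was 0.14 in dKO, and 0.30 without dKO replicate 3, the lowest library. It was 0.12 in TIFAB_KO, and 0.34 without TIFAB_KO replicate 3. The 95% intervals with all libraries were -0.31 to 0.59 in dKO, -0.36 to 0.61 in TIFAB_KO and -0.37 to 0.60 in miR-146a_KO.

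The gp130 gene Il6st (chr13:112464070-112510086, plus strand) carries 2 seed matches, the first of which is shown above. It had 117, 121, 63.3 and 84.9 CPM in dKO, 90.2, 117 and 93.1 CPM in TIFAB_KO, 86.2, 112 and 108 CPM in miR-146a_KO and 75.5, 87.3 and 75.4 CPM in WT. The TIFAB_KO libraries were all above the WT libraries, the miR-146a_KO libraries were all above WT replicates 1 and 3, and the dKO libraries lay on both sides of WT. The log2 fold change against WT was 0.24 ± 0.19 for dKO, 0.33 ± 0.21 for TIFAB_KO and 0.36 ± 0.21 for miR-146a_KO, with limma adjusted p of 0.580, 0.999 and 0.584; without dKO replicate 3 the dKO value was 0.42. For the 3 members with a seed match, Il6st, Csf2rb and Csf1r, the values in miR-146a_KO against WT were 0.36, 0.56 and 0.19. For the other 7 they lay between -0.11 in Il3ra and 0.82 in Csf2rb2, a range that contains all 3.

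The interferon gamma receptor chain Ifngr1 (chr10:19591949-19610229, plus strand) was the most even as well as the most abundant member. It had 262, 244, 314 and 226 CPM in dKO, 294, 312 and 228 CPM in TIFAB_KO, 253, 248.5 and 223 CPM in miR-146a_KO and 283, 218 and 222 CPM in WT. The groups overlap throughout, and the 95% intervals of the log2 fold change against WT were -0.20 to 0.44 in dKO, -0.13 to 0.54 in TIFAB_KO and -0.33 to 0.35 in miR-146a_KO. Its value in dKO was 0.12, and 0.03 without dKO replicate 3, and in TIFAB_KO it was 0.20, and 0.34 without TIFAB_KO replicate 3.

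TNF receptor 1, Tnfrsf1a (chr6:125349362-125362484, plus strand), had 30.5, 24.1, 20.5 and 25.3 CPM in dKO, 27.8, 36.1 and 35.6 CPM in TIFAB_KO, 27.1, 29.9 and 29.4 CPM in miR-146a_KO and 24.2, 24.4 and 16.9 CPM in WT. Every library of both single knockouts was above every WT library, whereas the dKO libraries overlapped WT. The log2 fold change was 0.61 ± 0.20 for TIFAB_KO over WT (unadjusted p = 0.00657, limma adjusted p = 0.678). It was 0.42 ± 0.20 for miR-146a_KO over WT (unadjusted p = 0.0516, limma adjusted p = 0.528) and 0.21 ± 0.19 for dKO over WT (adjusted p = 0.621). None passed. Leaving out WT replicate 3 brought the values to 0.44 for TIFAB_KO, 0.24 for miR-146a_KO and 0.03 for dKO, and leaving out TIFAB_KO replicate 3 brought the TIFAB_KO value to 0.56.

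**Figure D3:**
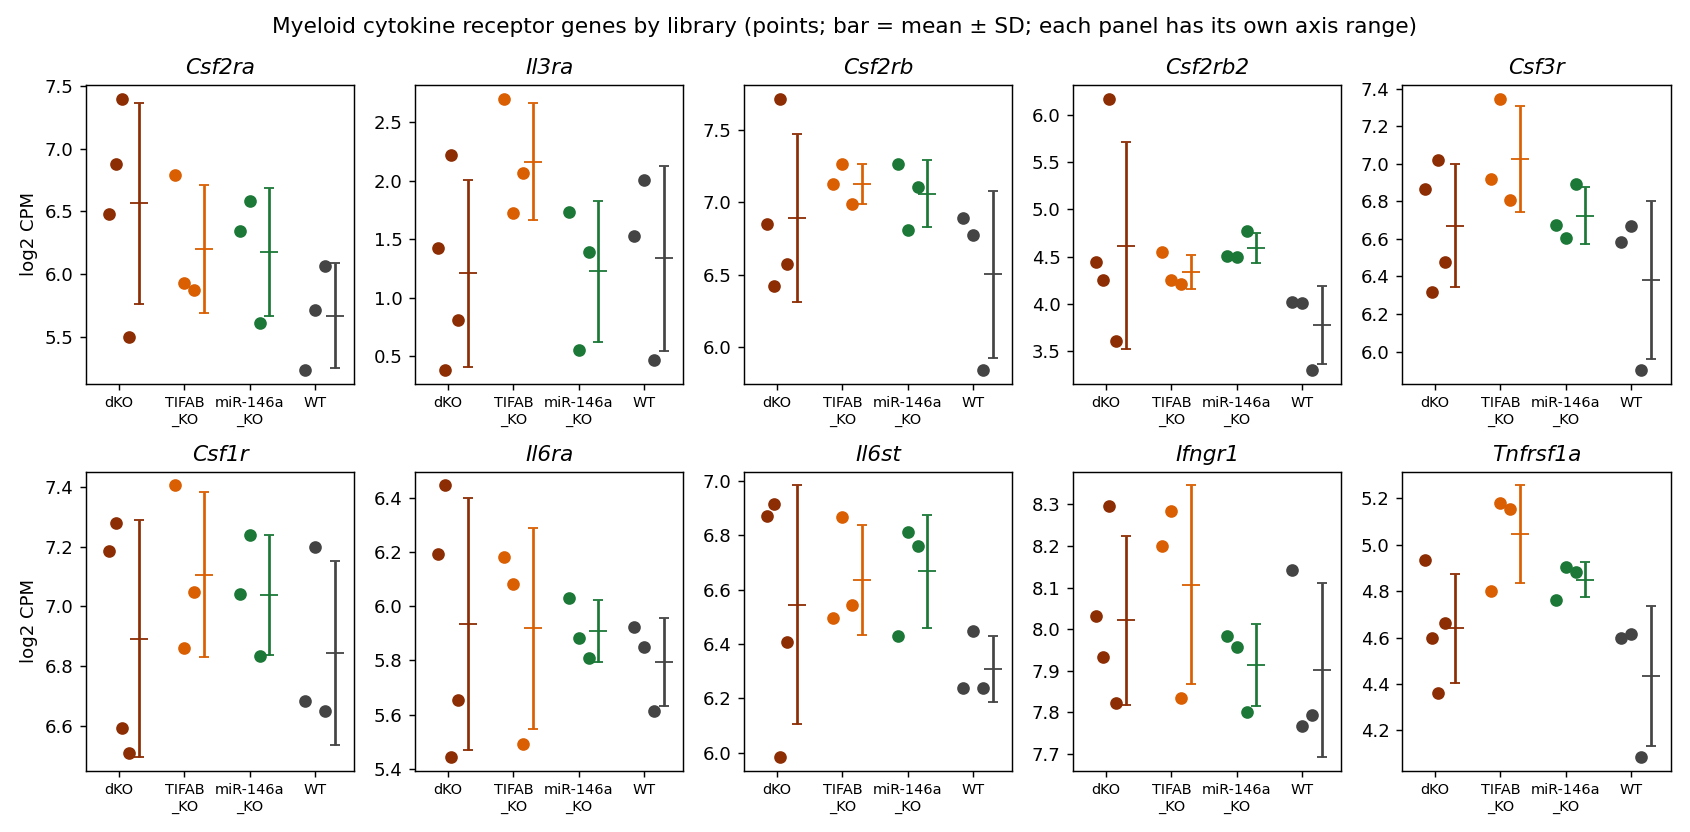
log2 CPM of each receptor gene in each library, as points for dKO, TIFAB_KO, miR-146a_KO and WT, with the mean and SD of the group as a bar beside them; each panel has its own axis range. Csf2ra, Csf2rb and Csf2rb2 share 1 high dKO library, replicate 3, and WT replicate 3 is the lowest point for Csf2rb, Csf2rb2, Csf3r and Tnfrsf1a.

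Loss of Tifab alone was compared with WT to ask what it does with miR-146a intact. None of the 10 receptors passed in TIFAB_KO against WT, where 2 of 11867 genes were called (0.0169%), both lower in TIFAB_KO and 1 of them Tifab itself. At an unadjusted p under 0.05, Csf2rb, Csf3r and Tnfrsf1a were higher in TIFAB_KO, against 2.99% of all genes. All 10 had a log2 fold change above 0, with a median of 0.55, whereas 47.6% of all tested genes were above 0 and their median was -0.01. Without WT replicate 3 the count was again 10 and the median 0.31, with values from 0.03 to 0.73; without TIFAB_KO replicate 1 the count was 9 and the median 0.43. The libraries did not overlap, TIFAB_KO above WT, for 5 of 10 receptors, Csf2rb, Csf2rb2, Csf3r, Il6st and Tnfrsf1a, against 5.21% of all genes. Leaving out any 1 library gave 5 to 7, against 7.74 to 13.3% of all genes. Dropping a library can only keep or raise a count without overlap, so that range does not test it. These counts describe genes that vary together and share the same 3 WT libraries, so the 10 values are not independent of each other. WT replicate 3 was the lowest WT library for 8 of the 10 receptors and the lowest of all 13 libraries for 4.

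Marker sums of myeloid cells were also higher in TIFAB_KO libraries, and the erythroid sum lower. The summed level of 10 granulocyte-monocyte progenitor genes, led by Mpo, was 16099.6 to 17932 CPM in TIFAB_KO and did not overlap 7974 to 13840.3 CPM in WT, and 9 of the 10 had a log2 fold change above 0. The summed level of the monocyte, macrophage and dendritic cell genes was 181 to 339 CPM in TIFAB_KO against 137 to 177 CPM in WT, with 8 of 8 tested genes above 0. Late granulocyte genes summed to 135 to 329 CPM in TIFAB_KO against 102 to 148 CPM in WT, with 8 of 8 above 0. Mast cell, basophil and eosinophil genes summed to 621 to 1085 CPM in TIFAB_KO against 341 to 632 CPM in WT, with 8 of 9 above 0. Erythroid genes summed to 1705 to 1940 CPM in TIFAB_KO against 2580 to 3269 CPM in WT, with 0 of 9 above 0. None of the genes in these 5 lists passed the test in this comparison, and the defining erythroid genes Hbb-bt and Hba-a1 had 0 reads in all libraries. WT replicate 3, low for most receptors, had the lowest progenitor sum of all libraries, 7974 CPM. The part of these markers in the receptor values was not tested, and in bulk RNA fewer cells of a type and less RNA per cell cannot be told apart.

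Loss of miR-146a alone gave no call among the receptors either, with 10 genes called in miR-146a_KO against WT (0.0843%). At an unadjusted p under 0.05 the count was 0 of 10, against 9.53% of all genes. A log2 fold change above 0 was seen for 9 of 10, all but Il3ra, with a median of 0.35, against 62.2% of all genes with a median of 0.09. Without WT replicate 3 the count was 8 and the median 0.16. The libraries did not overlap for Csf2rb2 and Tnfrsf1a, 2 of 10 against 15.5% of all genes, a share near the background. Leaving out any 1 library, which can only keep or raise the count, gave 2 to 5, against 19.2 to 28.4% of all genes. The 5 came without WT replicate 2, against 20.1% of all genes. The progenitor sum overlapped WT here, at 10799 to 13830.5 CPM in miR-146a_KO against 7974 to 13840.3 CPM in WT. Some other marker sums did not overlap WT, whereas the late granulocyte sum and the mast cell, basophil and eosinophil sum did. Stem cell and multipotent progenitor genes summed to 402 to 427 CPM in miR-146a_KO, narrowly below 428 to 450 CPM in WT (4 of 10 above 0). Monocyte, macrophage and dendritic cell genes summed to 217 to 230 CPM in miR-146a_KO against 137 to 177 CPM in WT (7 of 8 above 0), and B lineage genes, of which 3 were tested, to 26.6 to 37.2 CPM in miR-146a_KO against 14.1 to 19.3 CPM in WT (3 of 3 above 0). Erythroid genes summed to 1897 to 2309 CPM in miR-146a_KO against 2580 to 3269 CPM in WT (3 of 9 above 0), and megakaryocyte and platelet genes to 536 to 784 CPM in miR-146a_KO against 821 to 1036 CPM in WT (0 of 9 above 0). None of the genes in the lists named here passed in this comparison, and the part of the markers in the receptor values was not tested.

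The double knockout was set against WT to ask what losing both genes does. No receptor passed in dKO against WT, where 8 genes were called (0.0674%). Csf2ra and Csf2rb2 were higher at an unadjusted p under 0.05, 2 of 10 against 9.7% of all genes. A log2 fold change above 0 was seen for 9 of 10, with a median of 0.22 against 0.08 over all genes, of which 60% were above 0. The median was 0.05 without WT replicate 3 and 0.12 without dKO replicate 1, each with 8 of 10 above 0. In none of the 10 receptors were all dKO libraries above all WT libraries, against 8.9% of all genes. Without dKO replicate 4 the count was 2, Csf2ra and Csf2rb2, against 18.7%, and leaving out a library can only keep or raise it. Over the whole group, monocyte, macrophage and dendritic cell genes summed to 213 to 312 CPM in dKO against 137 to 177 CPM in WT, with 8 of 8 above 0, and megakaryocyte and platelet genes to 461 to 794 CPM in dKO against 821 to 1036 CPM in WT, with 1 of 9 above 0; neither sum overlapped. The dKO libraries spread widely: replicate 3 held the highest Csf2ra, Csf2rb, Csf2rb2 and Ifngr1 and the lowest Il6ra and Il6st of all 13 libraries. That library also had the highest late granulocyte sum, 656 CPM, against 86.5 to 324 CPM in the other dKO libraries and 102 to 148 CPM in WT. Its sum for stem cell and multipotent progenitor genes was the lowest of the 13, 321 CPM, and its mast cell, basophil and eosinophil sum was 1014 CPM. The part of these markers in the dKO receptor values was not tested.

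**Figure D4:**
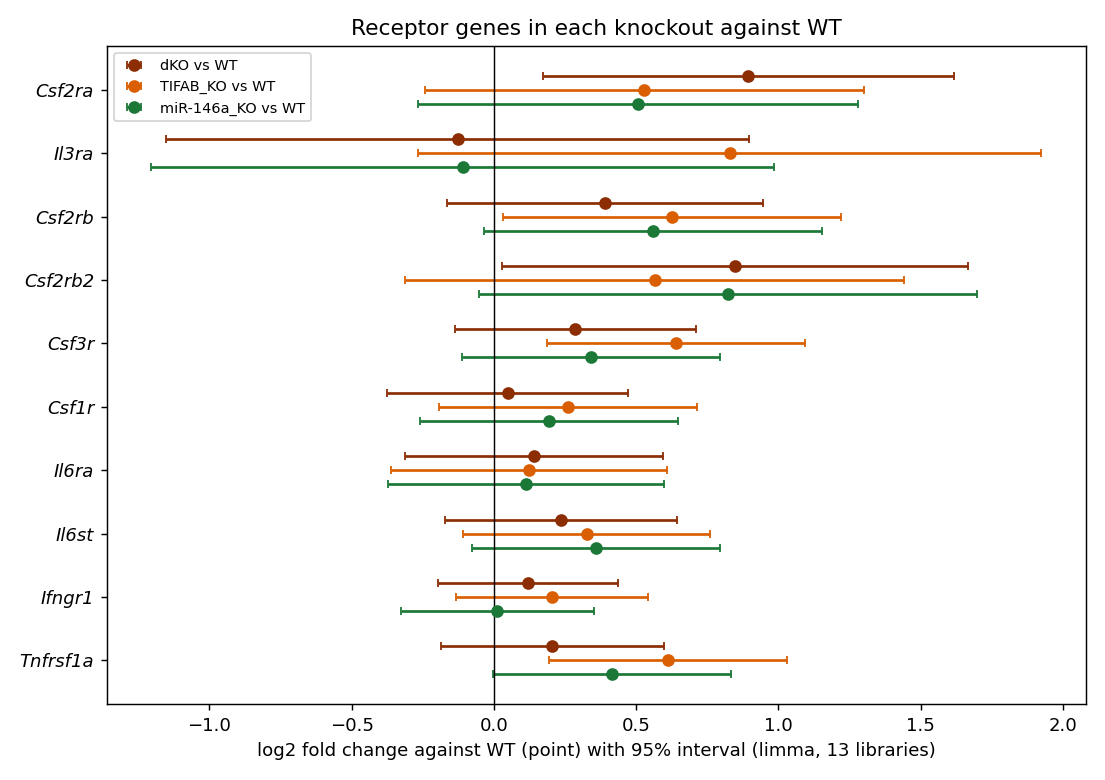
log2 fold change of each receptor gene in dKO, TIFAB_KO and miR-146a_KO against WT, as points with 95% intervals from limma. Csf2ra in dKO, at 0.89, lies farthest right, followed by Csf2rb2 in dKO and then Il3ra in TIFAB_KO, the last at 0.83. Most intervals cross 0. These intervals are not adjusted for the number of genes, and no gene shown passed the adjusted test.

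Set against each single knockout, the double knockout was not higher for the receptors as a set of values. In dKO against TIFAB_KO no receptor passed, where 4 genes were called (0.0337%), 3 of 10 had a log2 fold change above 0 against 60.1% of all genes, and the median was -0.15 against 0.09 over all genes. Tnfrsf1a was lower at an unadjusted p under 0.05, at -0.41 ± 0.19, 1 of 10 against 5.93% of all genes; its unadjusted limma p was 0.0433 and its adjusted p 0.258. Il3ra stood at -0.96 ± 0.49 and Csf3r at -0.35 ± 0.20 with limma adjusted p of 0.298 and 0.345. In dKO against miR-146a_KO no receptor passed, where 6 genes were called (0.0506%), 4 of 10 were above 0 against 47.8% of all genes, and the log2 fold changes ran from -0.21 in Tnfrsf1a to 0.39 in Csf2ra.

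The interaction, the log2 fold change of dKO over WT less those of both single knockouts over WT, asks whether the double loss differs from the sum of the single losses. It was above 0 for none of the 10 receptors, against 51.2% of all genes, with a median of -0.49 against 0.01 over all genes, and no gene of the 11867 was called (0%). At an unadjusted p under 0.05, limma gave 502 genes, 4.23% of those tested. Tnfrsf1a, at -0.82 ± 0.27, and Csf3r, at -0.70 ± 0.30, were among them, 2 of 10 on the lower side against 2.55% of all genes on that side. Their unadjusted limma p-values were 0.00748 and 0.0302, and the adjusted p of Tnfrsf1a was 0.945. Csf2rb stood at -0.79 ± 0.39 (unadjusted p = 0.0551 from limma). Without WT replicate 3 the values were -0.65 for Tnfrsf1a, -0.45 for Csf3r and -0.46 for Csf2rb. The median over the 10 was then -0.38, and it was -0.34 without dKO replicate 4 and -0.62 without WT replicate 2. The interaction subtracts both single-knockout differences from WT, so the same WT libraries enter it and the comparisons above. Averaged over the state of the other gene, loss of Tifab gave log2 fold changes above 0 in 10 of 10 receptors, against 46.7% of all genes. The median was 0.21, and 0.12 without WT replicate 3, with no call (2 genes called, 0.0169%). The count was 8 without dKO replicate 2 and 9 without TIFAB_KO replicate 1. This average joins TIFAB_KO against WT, with 10 of 10 above 0 and a median of 0.55, and dKO against miR-146a_KO, with 4 of 10 and a median of -0.04. Loss of miR-146a, averaged likewise, gave 6 of 10 above 0, against 62.6% of all genes, and no call among the receptors, although it had the most calls of any comparison, 87 genes (0.733%). Its values ran from -0.53 ± 0.36 in Il3ra to 0.55 ± 0.29 in Csf2rb2, with limma adjusted p of 0.372 and 0.251.

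Around the receptors, 123 genes of their pathways were listed and 112 were tested: ligands, further receptors, JAK and STAT proteins, inhibitors such as the SOCS proteins, adaptors and kinases, the TNF receptor complex, myeloid transcription factors and receptor targets. In each knockout against WT and in dKO against each single knockout, 0 of 112 rose and 0 fell. At an unadjusted p under 0.05, 13 were higher and 3 lower in dKO than in WT, against 9.7 and 4.36% of all genes. In TIFAB_KO 5 were higher and 6 lower, against 2.99 and 2.12%, and for miR-146a_KO 13 were higher and 3 lower, against 7.23 and 2.3%. Averaged over Tifab states, loss of miR-146a raised 1 of the 112, Sos1, the exchange factor that loads Ras below these receptors, by 0.50 ± 0.11 log2 (limma adjusted p = 0.0499); 0.463% of all genes were called higher in that comparison. That call lies at the threshold: its adjusted p was between 0.0187 and 0.176 over 25 alternatives, and 15 of them gave no call. In the same comparison Ripk1, a kinase bound by TNF receptor 1, stood at 0.48 ± 0.12, Socs4, a suppressor of cytokine signalling, at 0.51 ± 0.14, and Ifnar1 and Stat2, both parts of type I interferon signalling, at 0.35 ± 0.10 and 0.51 ± 0.15, with limma adjusted p of 0.0582, 0.0668, 0.0732 and 0.0801. Runx1, a transcription factor of blood progenitors, stood at 0.41 ± 0.13, Casp8, the caspase recruited below TNF receptor 1, at 0.45 ± 0.15, Jak2, the kinase bound to the beta chains, at 0.35 ± 0.12, and Dok1, an adaptor that dampens kinase signalling, at -0.74 ± 0.25. Their limma adjusted p-values were 0.093, 0.103, 0.107 and 0.104, and none of these 8 passed.

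Among myeloid transcription factors, Gfi1, a repressor that granulocyte progenitors need, had the smallest unadjusted p of the listed genes in TIFAB_KO against WT, with a log2 fold change of 1.31 ± 0.32 and a limma adjusted p of 0.429. It stood at -1.06 ± 0.30 in dKO against TIFAB_KO (adjusted p = 0.137), and its interaction was -1.78 ± 0.44 (adjusted p = 0.541). Klf4, a factor of monocyte differentiation, stood at -0.92 ± 0.26 in dKO and -0.86 ± 0.28 in TIFAB_KO against WT, with limma adjusted p of 0.211 and 0.677, and at -0.54 ± 0.19 for loss of Tifab averaged over miR-146a states (adjusted p = 1.00). In miR-146a_KO against WT, Klf4 stood at -0.69 ± 0.28 and Gfi1 at 0.72 ± 0.32, with limma adjusted p of 0.484 and 0.521. Klf4 was thus lower in every knockout group, each set against the same WT libraries. None of these passed.

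In dKO against TIFAB_KO, Sos1 stood at 0.70 ± 0.16, Jak2 at 0.59 ± 0.16, Socs4 at 0.58 ± 0.19 and Jak1, the kinase bound to gp130, at 0.42 ± 0.14, with limma adjusted p of 0.130, 0.136, 0.164 and 0.171. Cebpa, which granulocyte commitment requires, stood at -0.77 ± 0.24 there (adjusted p = 0.155). In dKO against WT, Il1rap, the shared chain of IL-1 family receptors, stood at 0.77 ± 0.23, Ripk1 at 0.54 ± 0.16 and Runx1 at 0.54 ± 0.18, with limma adjusted p of 0.216, 0.216 and 0.235. In miR-146a_KO against WT, Stat2, Ripk1 and Ifnar1 stood at 0.73 ± 0.22, 0.60 ± 0.17 and 0.47 ± 0.15, each with a limma adjusted p of 0.408. In dKO against miR-146a_KO, Lifr, a receptor chain that pairs with gp130, stood at -1.51 ± 0.47 (adjusted p = 1.00). None of these passed either.

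Some receptors varied together across the 13 libraries, which differ in genotype and depth, so the correlations of log2 CPM are descriptions. Csf2rb and Csf3r went together most closely (Pearson r = 0.870, and 0.892 without dKO replicate 3), then Csf2rb and Csf2rb2 (0.821, and 0.774 without it) and Csf2rb and Il3ra (0.734). Csf3r and Tnfrsf1a had r = 0.688, and 0.884 without dKO replicate 3. Il6ra went with Il6st (0.662, and 0.549 without dKO replicate 3) and with Csf1r (0.653, and 0.583 without it). Csf2ra stood apart from the beta chain it pairs with, at r = 0.287 with Csf2rb and -0.041 without dKO replicate 3.

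Outside the 10, the genes with the pattern most like each receptor were picked by the highest Pearson r over the 13 libraries among all tested genes. Picking the highest r from so many genes over 13 libraries raises it by itself. The values are therefore descriptions, given without a p, and the lower ones may reflect the picking alone. The closest match of all was Sptlc2, a subunit of the enzyme that begins sphingolipid synthesis, with Csf2ra at r = 0.982 (Spearman 0.989), followed by Abhd17b at 0.962 and Rgs19 at 0.953. Csf2rb was most like Sorl1 (0.918), Flot2 (0.909) and Lbp (0.908). Csf2rb2 was most like Xbp1, H2-Aa and Ikbke at 0.930, 0.925 and 0.920; for H2-Aa, an MHC class II gene, Spearman's rho was lower at 0.604. Csf3r was most like Plxnd1 (0.911), Hvcn1 (0.910) and Sgms2 (0.905), and Tnfrsf1a was most like Il1rl2 (0.896), Rinl (0.894) and Gpr141 (0.885). The best match was Abhd15 for Il6st (0.900), 1700025G04Rik for Csf1r (0.886), Vav3 for Il6ra (0.879), Gpi1 for Il3ra (0.863) and Tm6sf1 for Ifngr1 (0.851).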

How the data were processed

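Total RNA of 13 sorted LK samples was amplified (Ovation, NuGEN) and made into Nextera XT libraries, per the labels' protocols. TopHat, featureCounts, limma and the mm10 build are named in the submitters' processing notes, without versions, strand or multi-mapping settings. The authors deposited log2 CPM values as voom makes them (0.5 read per gene and 1 per total added); whole reads were recovered for 100% of values within 0.01 read, giving 7.83 to 12.8 M reads a library. The count precision of a gene follows from these reads.

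limma 3.58.1 in R 4.3.3 was fitted to the deposited log2 CPM with 1 mean per group over all 13 libraries and a variance trend (residual degrees of freedom 9, prior 9.53). The test took genes whose mean log2 CPM was 0 or more; calls are those with a Benjamini-Hochberg adjusted p under 0.05 in a comparison. Fold changes are the first group over the second, with SE. CPM values are recovered reads scaled to the library total, and RPKM divides by the longest GENCODE M21 transcript. The fit was tested on simulated data. Members, lists and tests were chosen with earlier results of these data known. Named genes are all members, and from each pathway list those called or, where none was, up to 2 per direction with the smallest unadjusted p, of which the text gives those under 0.01, a limit set after the values were seen. Klf4 and Gfi1 in miR-146a_KO against WT, which lie outside that limit, are given beside their other values. Alternatives covered filters, scaling, weights, the replicate block and leaving out each library.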

Additional observations from a re-analysis of the deposited data

Results flagged for a closer look

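1 value stood apart within its group. Csf2rb2 in dKO replicate 3, at 72.4 CPM, lay far from the other dKO libraries at 12.1 to 21.6 CPM: its gap to the nearest of them was 0.842 of the range of the group, above Dixon's 95% critical value of 0.829 for 4 samples. On the log2 scale used for the test the ratio was 0.675, below that value. Among the 10 receptors in the dKO group no other gene exceeded it on either scale, and chance alone marks about 1 group in 20.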

How the results depend on the processing

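No receptor passed the test in any of the 8 comparisons, and this held under every alternative run with 1 exception. In dKO against WT, 1 receptor, Csf2ra, was called with the replicate block (log2 fold change 1.25, adjusted p = 0.0429) and without dKO replicate 4 (0.0282). Both give 1 value, since replicate number 4 exists in dKO alone and the block absorbs that library. The numbers gave no sign of pairing the libraries, and the labels name no shared animal or batch. Deviations of the 18 same-numbered pairs correlated at -0.20 to 0.23, with 2 above 0.1, and 4 of 12 libraries correlated best with their own number. Codes in the column headers recur between groups, with no stated meaning. Deviations of libraries that share a code correlated at -0.086 to 0.060. With each library left out, the number of receptors called in dKO against WT was 0 to 1. The counts of receptors above 0 and of those without overlap, and the medians, with their left-out libraries, were chosen after the data were seen. In dKO against TIFAB_KO the count above 0 was 3, and 1 to 5 over the left-out libraries, 5 without TIFAB_KO replicate 2 and 1 without TIFAB_KO replicate 3 and dKO replicate 3 together. For the interaction that count was 0, 1 with the replicate block and 0 to 2 over the left-out libraries. Genes called over all 11867 depended far more on the setting: 2 (0 to 44) in TIFAB_KO against WT, 10 (4 to 213) in miR-146a_KO against WT, 8 (4 to 792) in dKO against WT and 87 (7 to 1040) for loss of miR-146a over both Tifab states, where 213 and 792 came with library quality weights, 44 without TIFAB_KO replicate 1 and 1040 without dKO replicate 4. With voom weights on the recovered reads the counts were 2, 8, 8 and 46. The cause was not tested. Depth limits Il3ra most, at 10 to 54 reads, and 3 or 4 libraries a group limit all members.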

Other observations

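The share of Csf2rb2 among beta-chain reads was looked at again after its values were seen, over the 7 libraries without miR-146a and the 6 with it. It averaged 16.7 ± 4.58% in dKO and miR-146a_KO and 12.9 ± 1.36% in TIFAB_KO and WT (SD). The difference of 3.83 percentage points had an exact two-sided permutation p of 0.0408, and 0.163 after Benjamini-Hochberg adjustment over the 4 comparisons of this share that were made, so it did not pass. Without dKO replicate 3 the difference was 2.36 points (exact permutation p = 0.0758, n = 6 and 6). Against WT alone the exact permutation p was 0.286 in dKO, 0.7 in TIFAB_KO and 0.2 in miR-146a_KO, where the smallest p these group sizes allow is 0.0571 for dKO and 0.1 for the others. Reads that fit both chains make the share itself uncertain.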
